A study of Rattus norvegicus with 8 samples.

Results

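The genes described are those of antigen presentation by the major histocompatibility complex (MHC), which is called RT1 in the rat. They are the entries of a rat gene expression array whose gene name starts with RT1-, with Cd74, Ciita, B2m, Tap1, Tap2, Tapbp, Psmb8, Psmb9 and Psmb10, in all 63 probes for 53 of the 26334 gene names on the array. Class I genes, with their peptide supply, make up 42 of the 53 and class II genes, with Cd74 and Ciita, the other 11. The retinas came from female Lister Hooded rats of 8 weeks. In the crush group (ONC) the right optic nerve was crushed with forceps, 3 mm behind the optic disc and for 10 s, while the sham group (CTR) had surgery without a crush. Retinas were taken 2 weeks after surgery, and 4 single retinas of each group were labeled with cyanine dyes and placed in pairs on 4 arrays, which gives 8 channels.

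MHC class I molecules sit on nearly all nucleated cells and show them peptides made inside the cell, while class II molecules show peptides taken up from outside and are found mainly on macrophages, dendritic cells and B cells. In the retina, microglia and perivascular macrophages are the cells best known to carry class II, at low levels unless they are activated. Interferon gamma raises both classes, class II through the coactivator Ciita.

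The labels put every CTR retina in the Cy5 channel and every ONC retina in the Cy3 channel, and condition therefore cannot be told apart from dye. The study's methods instead describe arrays on which both dyes carry the same condition, with CTR1, CTR3, ONC1 and ONC3 in Cy3 and CTR2, CTR4, ONC2 and ONC4 in Cy5, so that only CTR2, CTR4, ONC1 and ONC3 have one dye in both accounts. Channels and groups are named by their labels throughout. Most markers of retinal ganglion cells, the neurons whose axons form the optic nerve, did not split the channels by label, with Isl1 and Tubb3 as the exceptions among 13 that were measured. Pou4f2, a transcription factor of these cells, had log2 levels of -4.04, -0.52, -3.95 and -3.02 in CTR1 to CTR4 and of -0.03, -0.04, -0.05 and -3.14 in ONC1 to ONC4. It was thus high in CTR2, ONC1, ONC2 and ONC3 and low in CTR1, CTR3, CTR4 and ONC4. Nefm, a neurofilament subunit, stood at -0.21, 2.84, 0.12 and -0.13 in CTR and at 2.90, 2.99, 2.97 and -0.35 in ONC, with the same channels high. ONC1 and ONC3 were closer to each other than any other channels of a group, with a median absolute difference of 0.075 over all genes where other pairs within a group differed by 0.16 to 0.24. On the 1220 probes with 2 spots, ONC1 and ONC3 differed by 0.077 and the 2 spots of a probe within a channel by 0.10 to 0.15. All levels are log2 intensities after background subtraction, set so that 0 is the median spot of the channel, and differences are ONC minus CTR.

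Of the 53 members, 38 passed a filter that asks for a spot at least 2 times as bright as its background in all 8 channels and free of outlier marks, 31 in class I and 7 in class II. With limma over 16307 genes, 0 of the 31 class I members and 0 of the 7 class II members had an adjusted p under 0.05, where 81 of all genes did (0.497%). At an unadjusted p under 0.05, 11 class I members and 1 class II member passed, all lower in ONC (18.6% of all genes passed, in either direction). By direction alone, 29 of 31 class I members and 7 of 7 class II members were lower in ONC, against 52.6% of all genes. The median difference was -0.42 in class I and -0.36 in class II, against -0.013 over all genes. Without the filter on dim spots, and with normexp in place of background subtraction, 34 of 41 class I members and 8 of 11 class II members were lower, against 44.7% of all genes, with medians of -0.24 and -0.15. With the array, which carries the same replicate number in both groups, as a block, 5 class I members and 2 class II members passed (7.69% of all genes), all lower in ONC. The RNA comes from whole retinas, so fewer cells of a type cannot be told apart from less RNA per cell. These counts rest on labels that most ganglion cell markers did not follow. Without ONC2 38 of all genes passed, and without any other single channel, or with ONC1 and ONC3 averaged as 1 sample, 0 did. With ONC1 and ONC3 averaged the class I median was -0.39 and the class II median -0.33. On CTR2, CTR4, ONC1 and ONC3 alone, called the 4 agreed-dye channels from here on although ganglion cell markers differed between CTR2 and CTR4, the class I median was -0.35 and the class II median -0.0048, with 0 members called of either class and 0 of all genes. In both accounts CTR2 and CTR4 are Cy5 and ONC1 and ONC3 are Cy3, so these channels do not separate dye from condition either.

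**Figure D1:**
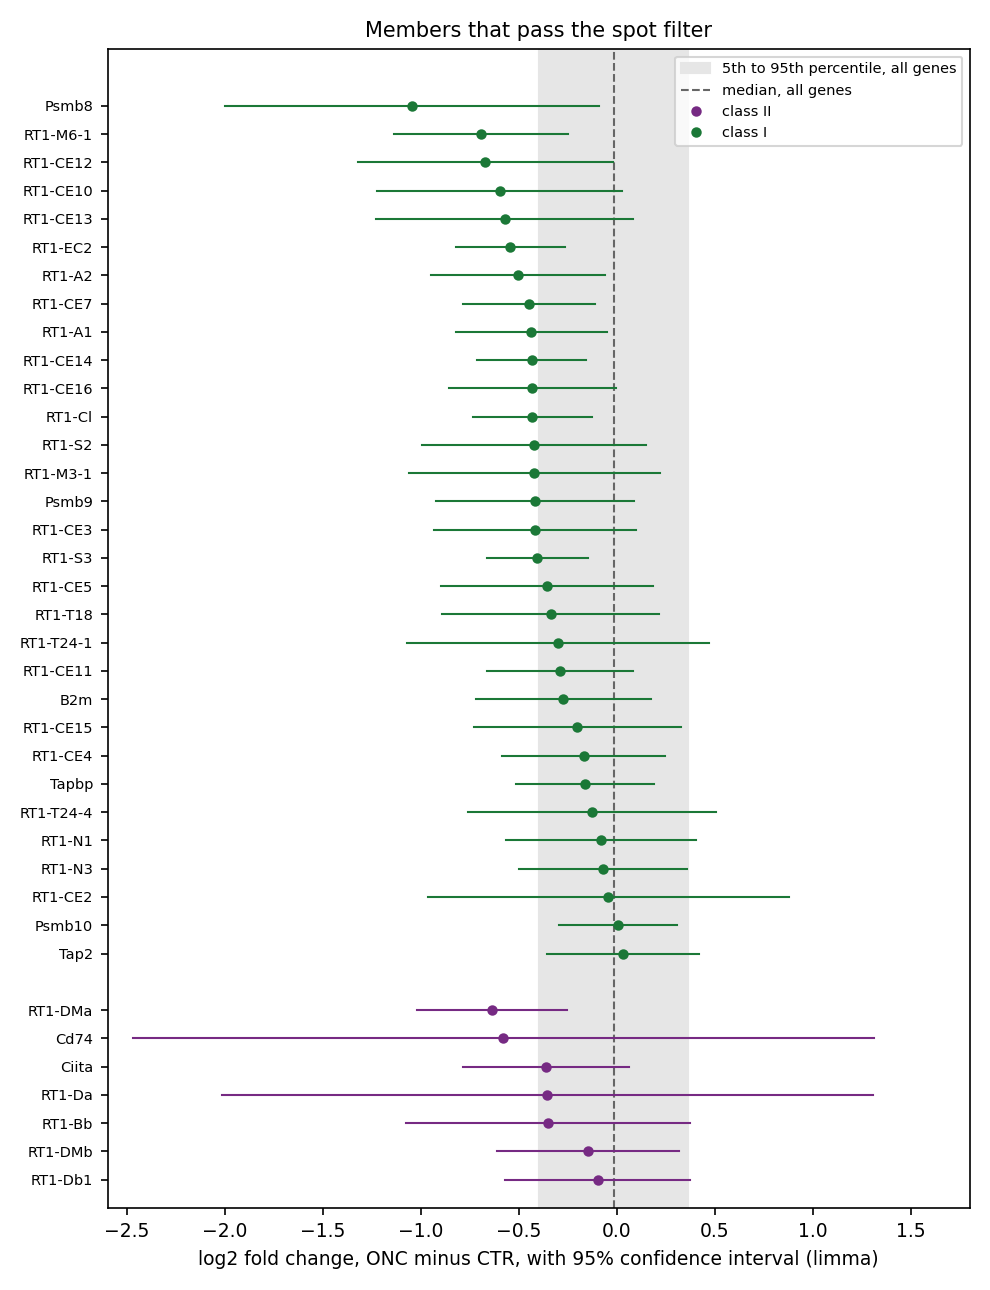
Difference in log2 level, ONC minus CTR, of each of the 38 members that passed the spot filter, with its 95% interval, beside the median (dashed) and the 5th to 95th percentile (gray) of all genes. The values lie from -1.05 for Psmb8 to 0.030 for Tap2, most of them below 0, with intervals that mostly reach across 0.

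Most class II genes varied more between channels of one group than between the groups. Cd74 encodes the invariant chain, which holds the peptide groove of new class II molecules closed and guides them to endosomes. It had levels of 0.93, -2.54, 1.66 and 0.63 in CTR1 to CTR4 and of -1.03, -0.66, -0.83 and 0.87 in ONC1 to ONC4. CTR2 stood lowest by a wide margin, ONC1 to ONC3 lay close together, and ONC4 lay among the high CTR channels, so that the groups overlapped. The difference was -0.58 with a standard error (SE) of 0.836 and an adjusted p of 0.771, with ONC below CTR on 2 of 4 arrays, and it was -1.48 without CTR2 and -0.085 without CTR3. The standard deviation (SD) of Cd74 within CTR, 1.85, was larger than that of 99.96% of all genes, and the SD within ONC, 0.864, larger than that of 98.98%. On the 4 agreed-dye channels the difference was 0.026. A second array entry, TC588776, is described on the array as an invariant chain transcript and lies outside the rule for members. It had levels of -0.25, -3.55, 0.31 and -0.01 in CTR and of -1.62, -1.73, -1.52 and 0.24 in ONC. CTR2 was again the lowest channel and ONC4 again the only ONC channel among the high ones.

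RT1-Da and RT1-Db1 encode the chains of the rat's DR-like class II molecule. RT1-Da had levels of -1.84, -4.67, -1.32 and -1.64 in CTR and of -3.10, -3.36, -3.07 and -1.38 in ONC. The order is that of Cd74, with CTR1, CTR3, CTR4 and ONC4 high, ONC1 to ONC3 lower and CTR2 lowest, and in CTR2 the spot was 2.07 times its background, close to the filter. Its difference was -0.36 (SE 0.735, adjusted p 0.849), and became 0.073 on the 4 agreed-dye channels, -1.12 without CTR2 and -0.0071 without CTR3. RT1-Db1, averaged over 2 probes, had levels of -1.60, -1.76, -0.79 and -1.31 in CTR and of -1.61, -1.37, -1.71 and -1.17 in ONC. CTR3 was its highest channel and the remaining ones lay within a narrow band in which the groups overlapped. Its difference of -0.099 (SE 0.209, adjusted p 0.854) turned to 0.0042 when channels were scaled to their medians alone and to 0.092 without CTR3.

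RT1-Ba and RT1-Bb encode the chains of the DQ-like molecule. RT1-Bb, on the probe that passed, had levels of -2.92, -4.02, -2.35 and -2.87 in CTR and of -3.37, -3.70, -3.53 and -2.96 in ONC. The high channels were again CTR1, CTR3, CTR4 and ONC4, with CTR2 lowest. Its difference of -0.35 (SE 0.320, adjusted p 0.611) became 0.15 with channels scaled to their medians and -0.0048 on the 4 agreed-dye channels. It was -0.68 without CTR2 and -0.12 without CTR3. The other RT1-Bb probe was left out because its spot in CTR2 was 1.31 times the background, against 3.71, 6.57 and 3.58 times in CTR1, CTR3 and CTR4. RT1-Ba was well above background in 0 of 8 channels.

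RT1-DMa and RT1-DMb form the DM molecule, which exchanges the remnant of the invariant chain for a peptide in endosomes. RT1-DMa had levels of -1.49, -1.54, -0.83 and -1.15 in CTR and of -1.86, -1.90, -1.67 and -2.14 in ONC. All 4 ONC channels lay below all 4 CTR channels, the only class II member of the 7 for which they did so, and 6.92% of all genes had this order. Its difference was -0.64 (SE 0.17, adjusted p 0.10, and 0.0419 with the array as a block), lower on 4 of 4 arrays, and -0.42 on the 4 agreed-dye channels. ONC4 was its lowest channel, while for Cd74, RT1-Da and RT1-Bb ONC4 was the highest of the ONC channels. RT1-DMb, its partner chain, had levels of -1.44, -1.89, -0.87 and -1.22 in CTR and of -1.48, -1.73, -1.57 and -1.22 in ONC. CTR3 was high, CTR2 low and the groups overlapped, with a difference of -0.15 (SE 0.205, adjusted p 0.762) that turned to 0.024 on the 4 agreed-dye channels and to 0.013 without CTR3.

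Ciita, the coactivator without which class II genes are not transcribed, had levels of -0.71, -0.63, -0.44 and -0.08 in CTR and of -0.98, -1.10, -0.88 and -0.35 in ONC. ONC was lower on 4 of 4 arrays, and ONC4 lay above 3 of the CTR channels, so that the groups overlapped. The difference was -0.36 (SE 0.188, adjusted p 0.349, and 0.0405 with the array as a block). It was -0.57 on the 4 agreed-dye channels and -0.23 without CTR4. CTR2 was not low for Ciita, unlike for Cd74 and RT1-Da.

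RT1-DOa and RT1-DOb, the chains of the DO molecule that restrains DM, and RT1-Ha, a chain of the DP-like molecule, did not pass the filter. RT1-DOa was well above background in 0 channels, RT1-DOb in 3 CTR and 0 ONC channels, and RT1-Ha in 1 channel of each group. Over the 7 members that passed, CTR2 was the lowest of all 8 channels for 5 and CTR3 the highest for 6. The class II median of -0.36 became -0.68 without CTR2, -0.08 without CTR3 and -0.23 without CTR4. With channels scaled to their medians it was -0.071, and 5 of the 7 were lower in ONC. Under that scaling 40.6% of all genes were lower, and the median over all genes was 0.073.

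**Figure D2:**
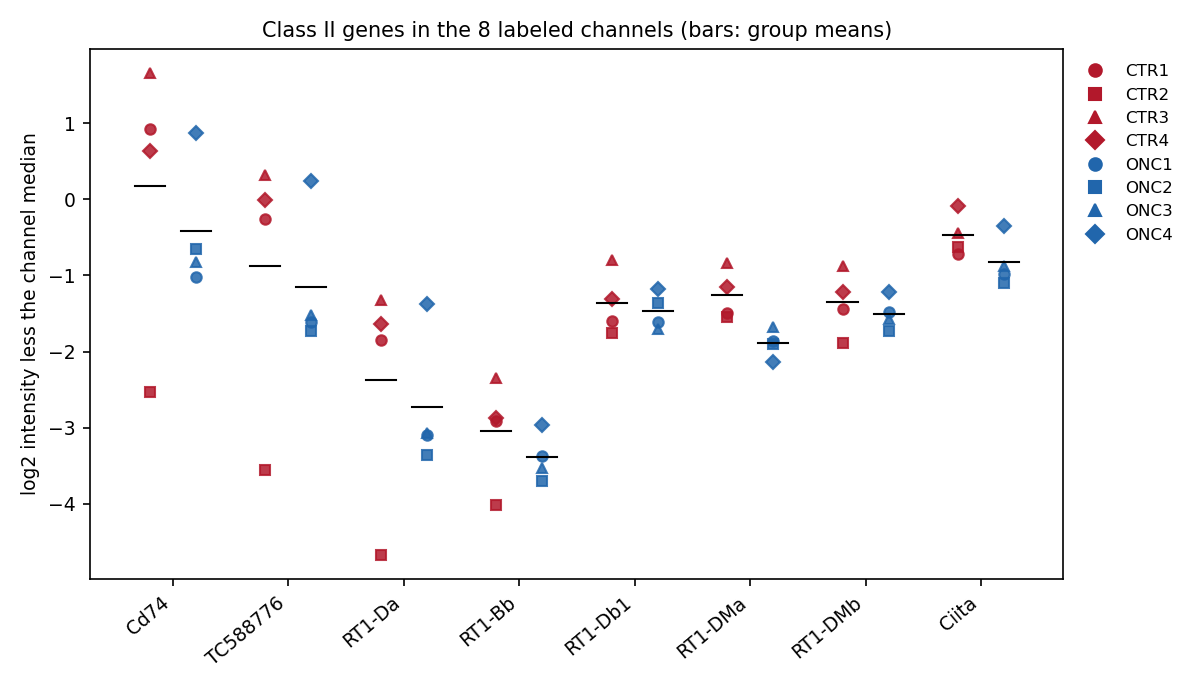
Log2 level of TC588776 and of the class II members that passed the spot filter, with 1 point for each of the 8 channels and bars at the group means. For Cd74, RT1-Da and RT1-Bb the channels CTR1, CTR3, CTR4 and ONC4 are high and CTR2 is lowest, while for RT1-DMa every ONC channel is below every CTR channel.

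The stretches of DNA before the start of transcription of 4 class II genes are shown because the class II genes share motifs there that bind the complex to which Ciita attaches. RefSeq (GRCr8) held a promoter for 43 of the 53 members, 9 of class II and 34 of class I, and 250 bases before the start were searched on both strands. CTGATTGG, a form of the Y box bound by NF-Y, was held by 3.19% of 33469 promoters and by 6 of 9 class II promoters, those of RT1-Ba, RT1-Bb, RT1-DOa, RT1-Da, RT1-Db1 and RT1-Ha. TAGCAAC, the core of an X box bound by the RFX complex, was held by 2.88% of all promoters and by 4 of 9, those of Cd74, RT1-DOb, RT1-Da and RT1-Db1. Only these exact letters of each box were counted, so a promoter without a mark, such as that of RT1-Bb for the X box, may hold another form. Capitals mark these motifs in the 130 bases before the start, at chr18:56527076-56527205 (+) for Cd74, chr20:4515285-4515414 (+) for RT1-Da, chr20:4560163-4560292 (-) for RT1-Db1 and chr20:4604119-4604248 (-) for RT1-Bb.
Cd74: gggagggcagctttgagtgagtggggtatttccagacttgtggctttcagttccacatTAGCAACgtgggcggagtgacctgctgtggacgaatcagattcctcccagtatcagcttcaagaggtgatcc
RT1-Da: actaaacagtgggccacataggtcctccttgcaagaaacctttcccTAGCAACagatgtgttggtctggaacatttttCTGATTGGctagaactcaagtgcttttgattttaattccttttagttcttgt
RT1-Db1: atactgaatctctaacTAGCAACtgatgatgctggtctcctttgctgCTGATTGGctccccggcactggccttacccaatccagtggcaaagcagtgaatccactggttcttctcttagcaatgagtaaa
RT1-Bb: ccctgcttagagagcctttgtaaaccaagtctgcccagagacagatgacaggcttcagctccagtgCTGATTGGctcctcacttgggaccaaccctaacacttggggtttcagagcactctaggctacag
Both motifs stand in RT1-Da and RT1-Db1, in the same order, although RT1-Da had the wide spread between channels of Cd74 and RT1-Db1 did not.

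The class I median lay above and below 0 in the same channels as the class II median, with CTR4 rather than CTR3 highest. Over the 31 members that passed, the median deviation from a gene's own mean had values of 0.23, -0.34, 0.36 and 0.59 in CTR1 to CTR4 and of -0.18, -0.26, -0.27 and 0.04 in ONC1 to ONC4. CTR4 was the highest of all channels for 24 of the 31 (21.8% of all genes) and CTR2 the lowest of the CTR channels for 29 of the 31 (41.6% of all genes). The median SD within CTR was 0.42 for class I against 0.18 for all genes, and within ONC 0.18 against 0.16. The class I median of -0.42 became -0.56 without CTR2 and -0.23 without CTR4. With channels scaled to their medians it was -0.36, and 25 of the 31 were lower in ONC (40.6% of all genes, with a median of 0.073).

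B2m is beta-2 microglobulin, the light chain that every class I molecule needs to reach the surface. It had levels of 3.31, 2.82, 3.61 and 3.79 in CTR and of 2.99, 3.23, 2.93 and 3.28 in ONC. CTR2 was the lowest channel and the other CTR channels lay above all of ONC, with a difference of -0.27 (SE 0.198, adjusted p 0.509) that was -0.46 without CTR2 and -0.14 without CTR4.

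Psmb8, Psmb9 and Psmb10 are the catalytic subunits that turn a proteasome into an immunoproteasome, which makes peptides suited to class I. Psmb8 had levels of -1.71, -1.59, -0.38 and 0.21 in CTR and of -2.41, -2.11, -1.60 and -1.54 in ONC. CTR3 and CTR4 stood above all other channels, and CTR1 and CTR2 lay among the ONC values. Its difference of -1.05 (SE 0.421) was the largest of the 38 members, with 9 of 16307 genes further below 0. Its adjusted p was 0.233, or 0.0398 with the array as a block, and the difference was -0.69 without CTR4. Psmb9 had levels of -0.41, -0.81, 0.11 and 0.31 in CTR and of -0.57, -0.76, -0.68 and -0.47 in ONC. Here too CTR3 and CTR4 were the high channels and CTR2 the lowest, with a difference of -0.42 (SE 0.223, adjusted p 0.360) that was -0.62 without CTR2 and -0.25 without CTR4. Psmb10 had levels of 2.28, 2.12, 2.61 and 2.61 in CTR and of 2.29, 2.35, 2.39 and 2.62 in ONC. The groups covered nearly the same range, and the difference of 0.0063 (SE 0.133, adjusted p 0.985) turned to -0.051 with channels scaled to their medians, -0.036 without CTR1, -0.088 without CTR2 and -0.063 without ONC4.

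Tap1 and Tap2 form the pump that carries peptides into the endoplasmic reticulum, and Tapbp is tapasin, which holds class I molecules at that pump. Tap1 was left out by the filter because of CTR1 alone, where its spot was 1.85 times the background. Tap2 had levels of 0.50, 0.27, 0.70 and 0.46 in CTR and of 0.68, 0.67, 0.70 and -0.01 in ONC. ONC4 lay apart below the rest, and the difference of 0.030 (SE 0.171, adjusted p 0.946) turned to -0.040 without CTR2, -0.027 without ONC1, -0.022 without ONC2 and -0.032 without ONC3, and was 0.33 on the 4 agreed-dye channels. Tapbp had levels of 0.25, -0.24, 0.51 and -0.09 in CTR and of -0.04, -0.16, -0.05 and 0.02 in ONC. The ONC channels lay within the range of CTR, with a difference of -0.17 (SE 0.156, adjusted p 0.623) that turned to 0.12 on the 4 agreed-dye channels. Leaving out 1 channel gave -0.28 to -0.031.

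Of 35 class I genes named RT1-, which encode heavy chains or molecules related to them, 25 passed the filter, and all 25 were lower in ONC in the fit over all channels (52.6% of all genes). Their median difference was -0.42, with a range from -0.69 to -0.044, and 10 of them had an unadjusted p under 0.05 in limma (18.6% of all genes). With channels scaled to their medians, RT1-CE15, RT1-CE2, RT1-N1, RT1-N3 and RT1-T24-4 turned to values above 0, and 5 genes passed the adjusted threshold, namely RT1-CE14, RT1-Cl, RT1-EC2, RT1-M6-1 and RT1-S3 (19.6% of all genes passed). Those 5 are named for passing there, as are the 4 of them, RT1-CE14, RT1-EC2, RT1-M6-1 and RT1-S3, for which every ONC channel lay below every CTR channel (6.92% of all genes). No class I member had every ONC channel above every CTR channel, which held for 5.76% of all genes. With Aquantile scaling after loess 1 class I member passed, RT1-EC2 (2.5% of all genes), and the t-test of the methods gave an unadjusted p under 0.05 for 4 class I members and 1 class II member (16.4% of all genes).

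Some class I probes have much sequence in common, so their values may not all be separate measurements, which was not tested. Of 50 class I probes, 17 shared 18 or more bases in a row with the probe of another member, and all 17 were among the 35 probes that passed, while 0 of 13 class II probes did. The longest stretch shared between members was 43 bases in class I and 10 in class II. RT1-M6-1, RT1-CE5 and RT1-S2 are shown with the 26 bases that their probes share in capitals, because RT1-M6-1 had the largest difference among the RT1 class I genes. These probes lie in rn4 at chr20:1660276-1660335 (+) for RT1-M6-1, chr20:3510942-3511001 (-) for RT1-CE5 and chr20:2795080-2795139 (+) for RT1-S2, and the second RT1-M6-1 probe, which shares less, at chr20:1660528-1660587 (+).
RT1-M6-1: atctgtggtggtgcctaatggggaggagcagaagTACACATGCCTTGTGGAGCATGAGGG
RT1-CE5: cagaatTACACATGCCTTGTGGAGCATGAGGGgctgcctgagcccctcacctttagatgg
RT1-S2: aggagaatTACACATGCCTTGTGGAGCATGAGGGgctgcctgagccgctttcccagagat
RT1-M6-1, second probe: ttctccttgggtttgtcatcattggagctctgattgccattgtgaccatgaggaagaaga
The probe of RT1-M6-1 that shares the stretch was 53.9 to 120.5 times its background over the 8 channels, while the second probe was well above background in 0 channels. RT1-M6-1 is a class I gene outside the classical ones, and the level below is that of the sharing probe alone.

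RT1-M6-1 had levels of 2.02, 1.24, 1.93 and 2.30 in CTR and of 1.24, 1.13, 1.14 and 1.20 in ONC. The ONC channels lay together at the level of CTR2, and the other CTR channels stood clear above. Its difference was -0.69 (SE 0.196, adjusted p 0.115, and 0.051 with the array as a block). On the probes that share the stretch, the difference was -0.30 for RT1-CE5 and -0.56 for RT1-S2. RT1-CE12 had levels of -2.46, -3.42, -2.37 and -2.11 in CTR and of -3.19, -3.64, -3.45 and -2.76 in ONC. CTR2 lay among the ONC channels and the other CTR channels above them, with a difference of -0.67 (SE 0.288, adjusted p 0.258, and 0.0424 with the block) that was -0.28 with channels scaled to their medians. RT1-CE10 had levels of -1.0, -1.78, -0.63 and -0.50 in CTR and of -1.39, -2.03, -1.52 and -1.35 in ONC. RT1-CE13 had levels of 0.01, -0.67, 0.30 and 0.64 in CTR and of -0.36, -1.03, -0.57 and -0.05 in ONC. Both had CTR2 among the ONC channels and CTR4 highest, and both were lower in ONC on 4 of 4 arrays. Their differences were -0.60 (SE 0.276, adjusted p 0.290, block 0.046) and -0.57 (SE 0.290, adjusted p 0.334, block 0.0377), and on the 4 agreed-dye channels RT1-CE10 differed by -0.32.

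RT1-EC2 and RT1-CE2 share 22 bases of their probes and are shown because their differences over all channels are far apart. RT1-CE2 has a probe at chr20:3577411-3577564 (-) in rn4, whose ends are wider apart than its 60 bases, and a second at chr20:3577352-3577411 (-), while the array gives no place for RT1-EC2. Capitals mark the shared bases.
RT1-EC2: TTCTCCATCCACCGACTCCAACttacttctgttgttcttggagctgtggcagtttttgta
RT1-CE2: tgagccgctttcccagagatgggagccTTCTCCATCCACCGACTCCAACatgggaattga
RT1-CE2, second probe: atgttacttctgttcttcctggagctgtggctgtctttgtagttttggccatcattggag
RT1-EC2 had levels of -0.03, -0.44, -0.04 and 0.10 in CTR and of -0.69, -0.69, -0.72 and -0.48 in ONC. Every ONC channel lay below every CTR channel, and its difference of -0.54 (SE 0.124) had the lowest adjusted p of the members, 0.0764, or 0.0336 with the block. RT1-CE2 had levels of 0.65, -0.10, -1.18 and 0.87 in CTR and of 0.11, 0.01, -0.43 and 0.39 in ONC. On both probes CTR3 was the lowest of the CTR channels and ONC3 the lowest of the ONC channels, and CTR3 was the lowest of all channels for no other class I member. Its difference of -0.044 (SE 0.407, adjusted p 0.968) turned to 0.019 with channels scaled to their medians, to 0.15 without CTR1, to 0.23 without CTR4 and to 0.11 without ONC3. On the 4 agreed-dye channels it was -0.55, beside -0.54 for RT1-EC2.

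RT1-A1, RT1-S3 and RT1-CE16 all hold a stretch of 16 bases, in capitals, near the part that spans the membrane, and are shown as genes with an unadjusted p under 0.05. By pairs the shared stretch is longer, with 26 bases for RT1-A1 and RT1-S3 and 19 for RT1-A1 and RT1-CE16. RT1-A1, a classical class I gene, has its probe at chr20:5059134-5059193 (+) and RT1-S3 at chr20:2817942-2818001 (+) in rn4, while RT1-CE16 lies on a piece of chromosome 20 that rn4 does not place.
RT1-A1: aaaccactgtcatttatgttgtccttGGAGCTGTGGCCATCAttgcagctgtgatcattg
RT1-S3: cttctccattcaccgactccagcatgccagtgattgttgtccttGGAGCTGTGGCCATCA
RT1-CE16: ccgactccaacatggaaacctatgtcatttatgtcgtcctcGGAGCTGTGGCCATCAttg
RT1-A1 had levels of 3.09, 2.43, 3.17 and 3.28 in CTR and of 2.59, 2.53, 2.50 and 2.61 in ONC. CTR2 was its lowest channel and the other CTR channels stood above ONC. The differences were -0.44 for RT1-A1, -0.41 for RT1-S3 and -0.43 for RT1-CE16, with adjusted p values of 0.217, 0.113 and 0.262. On the 4 agreed-dye channels RT1-S3 differed by -0.25.

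RT1-CE14 had levels of 2.30, 1.91, 2.44 and 2.35 in CTR and of 1.85, 1.85, 1.87 and 1.69 in ONC. Its groups did not overlap, with CTR2 close above the ONC channels. Its difference was -0.44 (adjusted p 0.114), and -0.27 on the 4 agreed-dye channels.

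**Figure D3:**
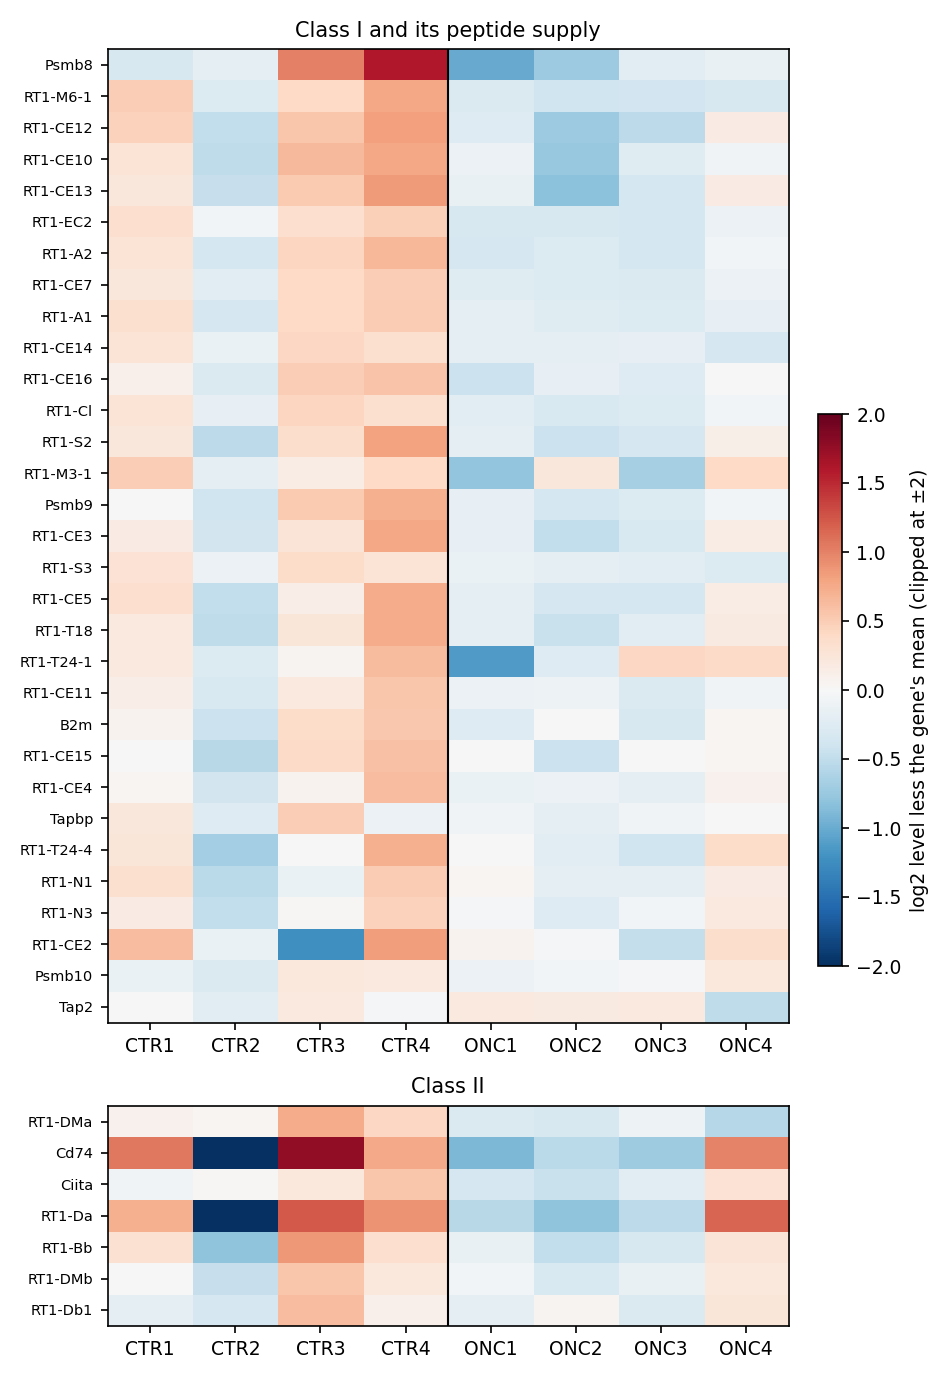
Deviation of each of the 38 members that passed the spot filter from its own mean over the 8 channels, in log2 with colors clipped at 2 and -2, with 1 line per member and 1 column per channel. CTR2 is low for most class I and class II members, CTR4 is highest for 24 of the 31 class I members, and CTR3 is highest for 6 of the 7 class II members.

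The smallest differences among RT1 class I genes after RT1-CE2 were -0.073 for RT1-N3, -0.082 for RT1-N1 and -0.13 for RT1-T24-4. For all 3, CTR2 was the lowest of the 8 channels and CTR4 the highest. Their differences turned to 0.23, 0.46 and 0.17 with channels scaled to their medians, and to 0.066, 0.076 and 0.085 without CTR4. RT1-N3 also turned to 0.00094 without ONC2 and RT1-N1 to 0.012 without CTR1. RT1-CE15 had a low signal, with levels of -3.61, -4.16, -3.23 and -3.02 in CTR and of -3.62, -4.04, -3.60 and -3.57 in ONC. CTR2 and ONC2, which share an array by the labels, were its low channels, and its difference of -0.20 (SE 0.233, adjusted p 0.701) turned to 0.44 with channels scaled to their medians and was -0.020 on the 4 agreed-dye channels. The 11 class I genes that did not pass were Tap1, RT1-N2, which carried an outlier mark, and RT1-CE6, RT1-M1-2, RT1-M1-4, RT1-M1-5, RT1-M10-1, RT1-M2, RT1-M4, RT1-M5 and RT1-T24-2, which were dim.

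**Figure D4:**
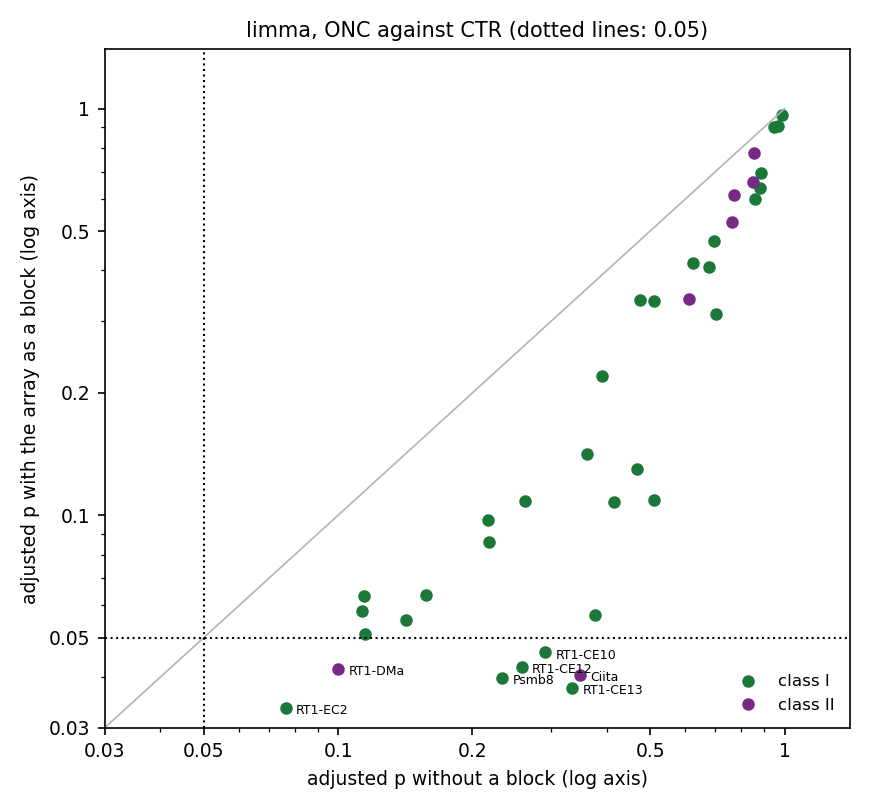
Adjusted p of each member in the limma fit without a block and with the array as a block, both on log axes, with dotted lines at 0.05 and a gray line where both are equal. The 7 named members pass 0.05 with the block alone, where 7.69% of all genes pass against 0.497% without it.

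Promoter stretches of 3 class I genes are shown because RT1-CE10 and RT1-CE13 passed with the block and RT1-A2 is a classical class I gene. GGGGANTCC, a site of the factor NF-kB in the enhancer of class I genes, was held on either strand by 0.929% of all promoters, by 8 of 34 class I promoters and by 0 of 9 class II promoters. The 8 were RT1-A1, RT1-A2, RT1-CE10, RT1-CE11, RT1-CE13, RT1-CE16, RT1-CE3 and RT1-CE4. GAAANNGAA, part of the element that answers to interferon, was held by 8.12% of all promoters, by 8 class I promoters, which were those of B2m, Psmb10, RT1-N3, RT1-S2, RT1-S3, Tap1, Tap2 and Tapbp, and by 0 of class II. CTGATTGG was held by 9 of the 34 and TAGCAAC by 2. Only these exact letters were counted for each motif, with N as any base. A class I promoter not named for GAAANNGAA, such as that of RT1-A2, RT1-CE10 or RT1-CE13, may hold another form of the interferon element. Capitals mark GGGGANTCC, which here overlaps its own match on the other strand, and CTGATTGG as read on the other strand, in 130 bases of GRCr8 at chr20:4872693-4872822 (+) for RT1-A2, chr20:3385050-3385179 (-) for RT1-CE10 and chr20:3322800-3322929 (-) for RT1-CE13.
RT1-A2: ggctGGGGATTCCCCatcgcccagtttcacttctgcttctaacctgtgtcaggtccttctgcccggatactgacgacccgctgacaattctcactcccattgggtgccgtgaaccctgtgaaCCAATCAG
RT1-CE10: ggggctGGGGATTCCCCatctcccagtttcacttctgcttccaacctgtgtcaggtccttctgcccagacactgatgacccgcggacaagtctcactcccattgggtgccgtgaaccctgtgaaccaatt
RT1-CE13: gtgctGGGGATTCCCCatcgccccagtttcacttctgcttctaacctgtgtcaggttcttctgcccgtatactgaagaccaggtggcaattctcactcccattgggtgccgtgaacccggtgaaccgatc
RT1-A2 had levels of 1.5, 0.88, 1.65 and 1.88 in CTR and of 0.89, 0.96, 0.87 and 1.17 in ONC, with CTR2 among the ONC channels and the other CTR channels above. Its difference was -0.50 (SE 0.196, adjusted p 0.218).

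Other genes of the pathway had smaller median differences than the members, although not in every setting. Of 13 listed partners of class II transport and loading, 9 passed the filter, 7 of them lower in ONC (52.6% of all genes), with a median difference of -0.12 and 0 called. Among them Ctss, the protease that trims the invariant chain, differed by -0.44 (adjusted p 0.274), and Ifi30, a reductase of endosomes, by -0.19 (adjusted p 0.526). For both, CTR3 and CTR4 were high and CTR2 was the lowest of CTR. Of 12 listed genes of class I loading and peptide trimming, 10 passed, 6 of them lower, with a median of -0.029 and 0 called. With channels scaled to their medians these medians were -0.15 and -0.084, both larger than the -0.071 of class II.

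Of 14 listed regulators of MHC transcription, 9 passed and all 9 were lower in ONC (52.6% of all genes), with a median of -0.20 and 0 called, and a median of -0.023 with channels scaled to their medians. Rfx5, a subunit of the RFX complex, differed by -0.33 (adjusted p 0.240), which turned to 0.063 with channels scaled to their medians. Irf1, a factor that interferon induces, had levels of -0.99, -1.47, -0.84 and -0.17 in CTR and of -1.20, -1.55, -1.22 and -0.79 in ONC. CTR4 was highest and CTR2 lay among the ONC channels, as for many class I genes, with a difference of -0.32 (adjusted p 0.561) that was -0.086 with channels scaled to their medians. Nlrc5, the coactivator of class I genes, is not on the array. Of 13 listed genes of interferon gamma signaling, 8 passed, 7 of them lower, with a median of -0.17, or -0.042 with channels scaled to their medians, and 0 called, and Ifng itself did not pass the filter.

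Most markers of microglia and macrophages had lower values in ONC, as most class I genes did. Of 16 listed markers all 16 passed, 15 were lower in ONC (52.6% of all genes), and the median difference was -0.38. An unadjusted p under 0.05 in limma was found for 6 (18.6% of all genes), among them Cx3cr1, which was higher in ONC, and 0 were called. The median deviation of the 16 had values of 0.16, -0.37, 0.48 and 0.53 in CTR1 to CTR4 and of -0.31, -0.07, -0.34 and -0.06 in ONC1 to ONC4. CTR3 and CTR4 were thus high and CTR2 low, as in class I, while ONC2 lay closer to 0 than in class I. Aif1, a marker of microglia, had levels of 1.05, 0.58, 1.82 and 1.72 in CTR and of 0.66, 0.76, 0.54 and 0.86 in ONC, a difference of -0.59 (adjusted p 0.261). Cx3cr1, the fractalkine receptor of microglia, was the marker that was higher in ONC, by 0.39 (adjusted p 0.192). Cd14, Itgam, Csf1r and Ptprc, a general marker of white blood cells, differed by -0.43, -0.29, -0.21 and -0.087. These turned to 0.032, 0.0069, 0.053 and 0.38 with channels scaled to their medians, where 11 of the 16 were lower (40.6% of all genes) and the median of the list was -0.28. Their part in the result was not tested.

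Most ganglion cell markers ran opposite to the medians of both MHC classes. Of 14 listed markers 13 passed, 12 were higher in ONC by the labels (7732 of all 16307 genes were), and the median difference was 1.15. Their median deviation had values of -1.33, 0.83, -0.94 and -0.81 in CTR1 to CTR4 and of 0.81, 1.10, 1.20 and -0.87 in ONC1 to ONC4. The study describes the crush as an injury after which ganglion cells gradually die, which would lower these markers. Most of them did not split the channels by label, so their difference is not read as an effect of the crush. The channels high for ganglion cell markers, CTR2, ONC1, ONC2 and ONC3, were the channels with a median below 0 in class I and in class II, although not every marker followed this order, and the microglia markers had a median below 0 in these channels and in ONC4. Pou4f2 differed by 2.07 (adjusted p 0.274) and Nefm by 1.47 (adjusted p 0.427). Isl1, a transcription factor of ganglion and bipolar cells, was the only gene of all lists that was called, with levels of 0.79, 0.91, 0.73 and 0.98 in CTR and of 1.51, 1.49, 1.49 and 1.48 in ONC. It was higher in ONC by 0.64 (adjusted p 0.0418), with all ONC channels above all CTR channels. Tubb3, a neuronal tubulin named after its values were seen, had levels of 1.02, 1.8, 1.17 and 1.8 in CTR and of 2.84, 2.43, 2.92 and 2.24 in ONC. Its ONC channels also lay above all CTR channels, with a difference of 1.16 (SE 0.224, adjusted p 0.0575). The part of these markers in the result was not tested.

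Few listed markers of other immune cells passed the filter. Of 4 perivascular macrophage markers 0 passed, of 8 dendritic cell markers 3, of 6 B cell markers 2, and of 12 T and NK cell markers 3, with 0 called and medians of -0.026, 0.11 and -0.086 in the last 3 lists, the last of which turned to 0.061 with channels scaled to their medians. Cd163, Cd79b and Cd3e, defining markers of perivascular macrophages, B cells and T cells, were well above background in 0 of 8 channels, and Itgax, a marker of dendritic cells, is not on the array. Of 8 granulocyte and erythrocyte genes 3 passed, the erythrocyte genes Hba1, Hbb and Alas2, with a median of 0.22 and 0 called. The granulocyte genes S100a8, S100a9 and Mpo did not pass.

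Markers of other cells of the eye were looked at in the same way. Of 10 markers of photoreceptors and other retinal neurons 10 passed, with a median of -0.17. Of 6 markers of Müller glia and astrocytes 6 passed, with a median of -0.32. Gfap differed by -1.15 (adjusted p 0.296), with CTR3 and CTR4 high and ONC2 low, and Aqp4 by -0.23. Slc1a3 differed by -0.56 and Vim by -0.41, with every ONC channel of Vim below every CTR channel, and these 2 passed with the block. Glul differed by 0.58 (adjusted p 0.271), and Rlbp1, a retinoid carrier of Müller glia, by 0.022 (adjusted p 0.943), or -0.038 with channels scaled to their medians. Of 7 genes of endothelium and pericytes 6 passed with a median of -0.054, of 7 of pigment epithelium and choroid 3 with a median of 0.19, of 9 of lens, cornea and conjunctiva 7 with a median of -0.11, and of 5 of oligodendrocytes 3 with a median of 0.044. With channels scaled to their medians the median was 0.47 for pigment epithelium and choroid and 0.59 for oligodendrocytes. The lens, cornea and conjunctiva list, with 5 genes lower in ONC and 2 higher, had a median deviation of 1.11 in CTR2. In the other channels its median deviation lay from -0.45 to 0.25. Within this list Cryaa differed by -0.95 (adjusted p 0.134). The part of these genes in the result was not tested. In these 6 lists 0 genes were called without the block.

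**Figure D5:**
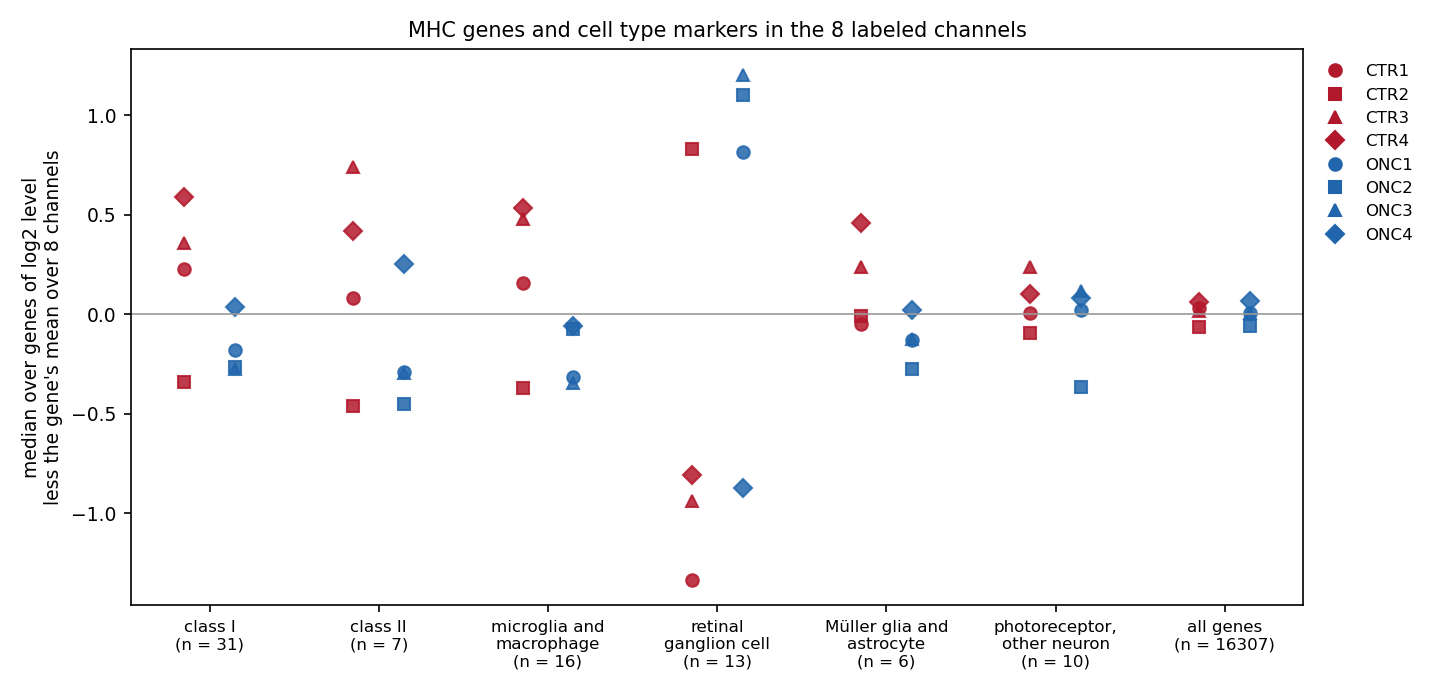
Median deviation from a gene's own mean, in log2, in each of the 8 channels for class I members, class II members and marker lists. Class I and microglia markers are high in CTR3 and CTR4 and low in CTR2, and ganglion cell markers are high in CTR2, ONC1, ONC2 and ONC3.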

How the data were processed

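The authors deposited, per the file headers, the intensity of each spot and of its local background from Feature Extraction 12.0.3.1 (11.1.19.1 in the submitters' notes), for 4 arrays of 60-base probes. Of 42877 spots that are not controls, a spot was left out if any channel had an outlier mark or a foreground below 2 times its background, the background was subtracted, and loess within arrays and centering on each channel's median followed. Spots were averaged to 18599 probes and these to 16307 genes. This filter acts mostly through the CTR channels, where 71.9 to 75.0% of spots reach 2 times the background, against 98.2 to 99.9% in ONC. Differences were tested with limma 3.58.1 in R 4.3.3, two-sided, with Benjamini-Hochberg adjustment over all 16307 genes. The number of arrays limits the precision.

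The members and the 17 gene lists were chosen with earlier results of these data known. Genes named are every class II member, members not named RT1-, the 4 RT1 class I genes with the largest and the 4 with the smallest difference, those with a channel far from the others, and preset list genes. Some list genes and a probe sequence are not reported here. RT1-A1, RT1-A2, RT1-CE14, RT1-CE16, RT1-EC2 and RT1-S3 were also described after their values were seen. Deviations from the group mean correlated between channels of the same number with r of 0.149, 0.549, 0.401 and 0.487 over 16307 genes, which are not independent, and between other CTR and ONC channels with -0.512 to 0.171, the last for CTR1 and ONC2 and above the value for array 1. Fits with the array as a block were run for this reason. Alternatives were other scaling, signal, background correction, filter, probe choice, test and channels. Probe positions are those of the array grid (rn4), and promoters are from RefSeq (GRCr8). The letters of the NF-kB and interferon motifs were shortened after counts with a longer form had been seen.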

Additional observations from a re-analysis of the deposited data

Results flagged for a closer look

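In each group of 4 channels, a Dixon ratio above its critical value at the 95% level marks a channel far from the others, which chance gives in about 1 in 20 groups. It marked 6 of the 76 groups of the members (7.89%), against 7.91% of the groups of all genes. In the CTR channels, CTR2 was far below the others for RT1-Da, at -4.67, and for TC588776, at -3.55, and far above them for Nefm, at 2.84. In the ONC channels, ONC4 was far above the others for RT1-Da, at -1.38, for RT1-EC2, at -0.48, and for TC588776, at 0.24. ONC4 was far below the others for RT1-CE14, at 1.69, for Tap2, at -0.0067, for Pou4f2, at -3.14, and for Nefm, at -0.35. ONC2 was far below the others for RT1-CE15, at -4.04, and for Rlbp1, at 2.27.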

How the results depend on the processing

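Of 38 members, 23 kept the sign of their difference in all settings and 27 were called in none. Against 81 genes called (38 higher and 43 lower in ONC), channels scaled to their medians gave 3194 (2267 higher), Aquantile 408, the scanner's processed signal 21, normexp 14, normexp together with no filter on dim spots 0 of 25942, the block 1254 (502 higher), the brightest probe 124, the 4 agreed-dye channels 0, and the methods' t-test 2682 before and 0 after adjustment. Leaving out 1 channel gave 0 to 38, with 38 without ONC2 and 0 without any other. With ONC1 and ONC3 averaged, chosen after seeing the data, 0 were called. Class I members called, 0 with limma, were 5 with median scaling, 1 with Aquantile, 5 with the block and 4 with the unadjusted t-test, and class II members 2 with the block and 1 with the t-test. The block changed no other call among members. The cause was not tested for any of these.

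Signs reversed on the 4 agreed-dye channels for Cd74 (0.026), RT1-DMb (0.024), RT1-Da (0.073), Psmb10 (-0.025) and Tapbp (0.12). With median scaling they reversed for RT1-Bb (0.15), RT1-Db1 (0.0042), Psmb10 (-0.051), RT1-CE15 (0.44), RT1-CE2 (0.019), RT1-N1 (0.46), RT1-N3 (0.23) and RT1-T24-4 (0.17), with the processed signal for Psmb10 (-0.061) and RT1-N3 (0.0060), and with ONC1 and ONC3 averaged for RT1-CE2 (0.016) and Tap2 (-0.030). Leaving out 1 channel gave -0.32 to 0.013 for RT1-DMb, -0.23 to 0.092 for RT1-Db1, -0.088 to 0.075 for Psmb10, -0.46 to 0.23 for RT1-CE2, -0.32 to 0.0063 for RT1-CE4, -0.27 to 0.076 for RT1-N1, -0.25 to 0.066 for RT1-N3, -0.49 to 0.028 for RT1-T24-1, -0.38 to 0.085 for RT1-T24-4 and -0.040 to 0.20 for Tap2. The cause was not tested. The signal over background limits what is said of the members that did not pass the filter, other than RT1-N2, which carried an outlier mark.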
